A study of Mus musculus with 6 samples.

Results

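The transcription factor p53 and genes that it is known to activate were followed in RNA from the mouse hippocampus. The set held 10 genes chosen by symbol, namely Trp53, which encodes p53, and Cdkn1a, Mdm2, Bax, Ccng1, Trp53inp1, Phlda3, Eda2r, Sesn2 and Aen. All 10 were found among the 52550 genes of the count table. Their splicing events were taken by gene symbol from the table of alternative splicing, which gave 20 of 40961 events.

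The study compared hippocampi after control shRNA with hippocampi after shRNA against L-DL, the long isoform of the RNA-binding protein hnRNP DL. Both groups were male C57BL/6 J mice injected with adeno-associated virus into CA1 of both hemispheres at 8 weeks of age, and each group had 3 libraries. The labels name the controls wild type, and name the other group hnRNP DL KD in one field and hnRNP DL-/- in another. The shRNAs against L-DL were 4 tandem sequences driven by the H1 promoter, which is not restricted to a cell type, whereas the zsGreen reporter of that vector was driven by the neuronal CamkIIα promoter. According to the study's methods the control virus had the higher titre, so titre and shRNA cannot be told apart. It is not stated whether untreated tissue around the injected area was part of each sample.

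From 16052529 to 17913064 reads per library were counted on genes. Levels are given as CPM, counts scaled to library sizes that were adjusted by the TMM method. Hnrnpdl, the targeted gene, had 176, 184 and 171 CPM in control libraries 1 to 3 and 217, 150 and 173 CPM in L-DL KD libraries 1 to 3. These ranges overlapped, the log2 fold change was 0.03 (SE 0.12, adjusted p = 0.898, edgeR's quasi-likelihood test), and the count does not part the long isoform from the others. The second group is therefore named the libraries labelled L-DL KD. Genes of the choroid plexus, the secretory epithelium of the ventricles, differed within both groups. Their summed level was 1729, 445 and 4657 CPM in the 3 controls and 5226, 118 and 32.5 CPM in L-DL KD libraries 1 to 3, so that control 3 and L-DL KD 1 stood apart from the rest. The libraries are taken as separate mice, which the labels do not state, and if they were not, the p-values would measure technical spread only.

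In most cells p53 protein is made continuously and destroyed continuously, because MDM2, itself the product of a p53 target gene, marks it for degradation. DNA damage and other stresses block this destruction, and p53 then binds to response elements in DNA and raises transcription of genes that halt the cell cycle, repair DNA, adjust metabolism or start apoptosis. In the brain p53 is best known for its part in the death of neurons after injury. p53 activity is mainly set at the level of the protein, which RNA counts do not measure.

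The response elements are shown here because they are the sequences through which p53 recognises its targets. The element consists of 2 copies of a 10-base repeat, and the known consensus of both copies with no base between them was searched in windows from 250 bases before to 50 bases after each RefSeq gene start (GRCm38.p6). The consensus equals its own reverse complement, so that a search of either strand finds the same sites. Matches were allowed 1 mismatch outside the fixed C and G of each copy, a limit set after trial searches. Such a match was present in 22 of 32851 windows (0.067%). Among the 9 members with a window, 2 held one, Cdkn1a and Ccng1, each with 1 mismatch. Both are printed with 20 flanking bases on each side, 5′ to 3′ on the strand of the gene, with the match in capitals.
Cdkn1a: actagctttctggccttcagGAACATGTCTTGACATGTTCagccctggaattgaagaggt
Ccng1: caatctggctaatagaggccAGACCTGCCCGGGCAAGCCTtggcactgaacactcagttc
The Cdkn1a stretch lies at chr17:29090908-29090967 on the plus strand. Its match covers bases 51 to 32 before the upstream of 2 annotated Cdkn1a starts, which is 2841 to 2822 bases before the downstream start. The Ccng1 stretch lies at chr11:40755442-40755501 on the minus strand, with its match at bases 195 to 176 before the start. A match describes letters only, and no p53 binding was measured. For the 7 other members with a window, and for parts of all genes outside the windows, nothing follows about p53 from the search. Trp53inp1 had no window in the table.

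All members had enough reads to be tested, with 10 counts or more in 3 libraries or more, and 8 of the 10 were higher in the libraries labelled L-DL KD at an adjusted p under 0.05, whereas 0 were lower. Of all 17621 tested genes 15.6% were called higher and 15.0% lower, so that calls were common in both directions in the whole table. The members had been chosen with earlier results of these libraries known, so their counts and median describe them and are no independent evidence of a direction. The median log2 fold change of the members was 0.77, against 0.01 for all tested genes. In 9 of the 10 members each library labelled L-DL KD lay above each control, as it did for 23.8% of all tested genes. Bax and Mdm2 did not pass the test. Without control 3 and L-DL KD 1, the libraries rich in choroid plexus RNA, 9 of the 10 members were called higher. With any 1 library left out it was 8 or 9 of the 10.

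**Figure D1:**
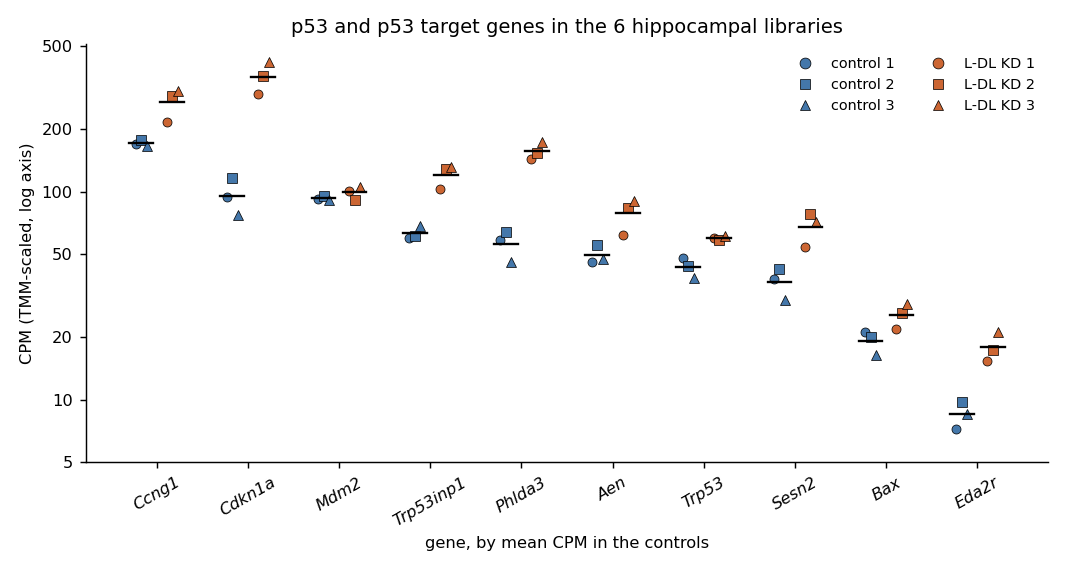
CPM of Trp53 and 9 p53 target genes on a log axis in each of the 3 control (blue) and 3 L-DL KD (orange) libraries, with a bar at each group mean. The groups lie apart for every gene shown except Mdm2, whose L-DL KD 2 value of 91.1 CPM falls between control values of 90.7 and 95.3 CPM.

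Trp53 itself rose modestly. Its level was 48.1, 43.7 and 38.5 CPM in the controls and 59.6, 58.1 and 60.8 CPM in libraries labelled L-DL KD. The lowest value of the second group exceeded the highest control by 10.01 CPM, and the L-DL KD values were the more uniform, with a coefficient of variation of 2.2% against 11%. The log2 fold change was 0.45 (SE 0.09, 95% interval 0.24 to 0.66, adjusted p = 0.00774, edgeR's quasi-likelihood method, adjusted over all tested genes by Benjamini-Hochberg, as for the values that follow).

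Of the genes that feed back on p53, Ccng1 rose and Mdm2 did not pass the test. Ccng1 encodes cyclin G1, which recruits a phosphatase to MDM2. It was at 169, 178 and 166 CPM in the controls and at 216, 289 and 306 CPM in libraries labelled L-DL KD. The groups lay apart, with L-DL KD 1 well below the other L-DL KD libraries, and the log2 fold change was 0.66 (SE 0.12, adjusted p = 0.00572). Mdm2, the ubiquitin ligase that marks p53 for degradation and one of the best known p53 targets, was at 92.4, 95.3 and 90.7 CPM in the controls and at 100, 91.1 and 105 CPM in libraries labelled L-DL KD. The groups overlapped, and the log2 fold change was 0.09 (SE 0.07, adjusted p = 0.383). Its 95% interval of -0.08 to 0.26 corresponds to a fold between 0.948 and 1.2, so that a rise of the size seen in Ccng1 lies outside it.

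Cdkn1a changed most among the members. It encodes p21, the inhibitor of cyclin-dependent kinases through which p53 halts the cell cycle. Cdkn1a was at 94.0, 116 and 77.0 CPM in the controls and at 295, 357 and 418 CPM in libraries labelled L-DL KD. The lowest L-DL KD value exceeded the highest control by 179 CPM. Its level was 3.73-fold higher (95% interval 2.83 to 4.91), with a log2 fold change of 1.90 (SE 0.17, adjusted p = 0.00029), which ranked 182 among the 17621 tested genes from the highest rise down.

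Members that act on growth and stress signalling also rose. Phlda3 encodes a small lipid-binding protein that keeps the kinase AKT from the membrane. It was at 58.3, 64.1 and 45.8 CPM in the controls and at 143, 154 and 174 CPM in libraries labelled L-DL KD. The groups lay far apart, with a log2 fold change of 1.48 (SE 0.13, adjusted p = 0.000266). Sesn2 encodes sestrin 2, which restrains mTORC1 when amino acids are scarce and is induced by stress through ATF4 as well as p53. It was at 37.8, 42.5 and 30.2 CPM in the controls and at 54.0, 77.8 and 71.5 CPM in L-DL KD libraries 1 to 3, the first again being lowest. Its groups did not overlap and its log2 fold change was 0.88 (SE 0.16, adjusted p = 0.00547). Trp53inp1 encodes a nuclear protein with roles in p53 phosphorylation and autophagy. Levels of Trp53inp1 were 60.0, 60.8 and 67.9 CPM in the controls and 103, 128 and 130 CPM in libraries labelled L-DL KD. These groups were apart as well, with a log2 fold change of 0.94 (SE 0.11, adjusted p = 0.000677).

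Among the members linked to cell death, Eda2r and Aen rose and Bax did not pass the test. Eda2r encodes a receptor of the tumour necrosis factor receptor family and was the least abundant member. It was at 7.21, 9.71 and 8.51 CPM in the controls and at 15.3, 17.3 and 21.1 CPM in the libraries labelled L-DL KD. All L-DL KD values lay above the controls, with a log2 fold change of 1.08 (SE 0.17, adjusted p = 0.00278). Aen, which encodes an apoptosis-enhancing nuclease, was at 45.8, 55.2 and 47.6 CPM in the controls and at 61.7, 83.5 and 90.1 CPM in the libraries labelled L-DL KD. L-DL KD 1 was nearest to the controls, without overlap, and the log2 fold change was 0.66 (SE 0.14, adjusted p = 0.0106). Bax, whose product opens the outer mitochondrial membrane, was at 21, 20.1 and 16.4 CPM in the controls and at 21.8, 26.0 and 28.9 CPM in libraries labelled L-DL KD. The groups were apart by 0.801 CPM only, and the log2 fold change was 0.41 (SE 0.14, 95% interval 0.08 to 0.75, adjusted p = 0.0624). For Bax the call depended on the libraries and the tool, with an adjusted p of 0.0145 without L-DL KD 1, 0.0432 by DESeq2 and up to 0.18 over the other alternatives.

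**Figure D2:**
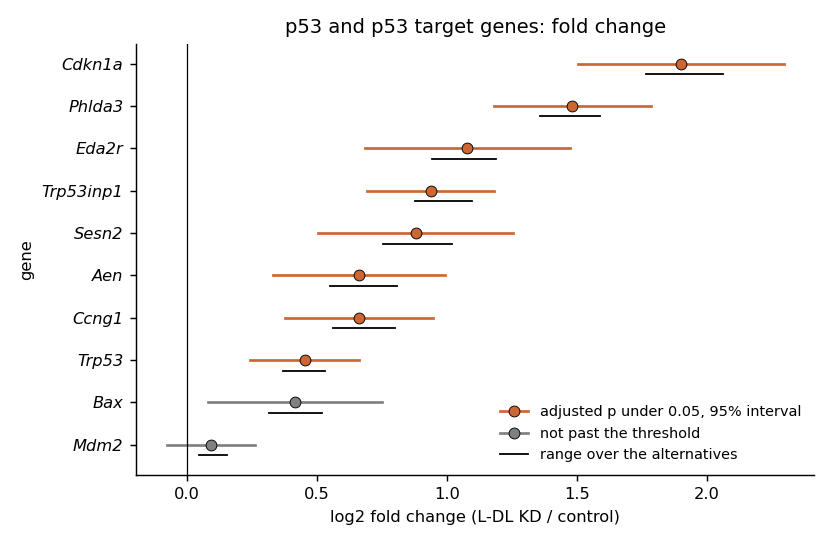
Log2 fold change (L-DL KD over control) of each member with its 95% interval, in orange where the adjusted p was under 0.05, and below it in black the range over the alternative analyses. All 10 values lie above 0, from 0.09 for Mdm2 to 1.90 for Cdkn1a, and the interval of Mdm2 alone includes 0.

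Within each group the libraries ranked alike for most members. L-DL KD 3 was the highest of its group for 9 of the 10 members and L-DL KD 1 the lowest for 8. Among the controls, control 2 was highest for 7 members and control 3 lowest for 7. Over the 2743 genes called higher, L-DL KD 1 was the lowest of its group for 48.7% and L-DL KD 3 the highest for 51.6%, while control 2 was the highest control for 34.6% and control 3 the lowest for 46.4%. Control 3 and L-DL KD 1 were also the libraries with the most choroid plexus RNA, and the part of this in the members' values was not tested beyond leaving both out, when the members' log2 fold changes remained positive in all 10.

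**Figure D3:**
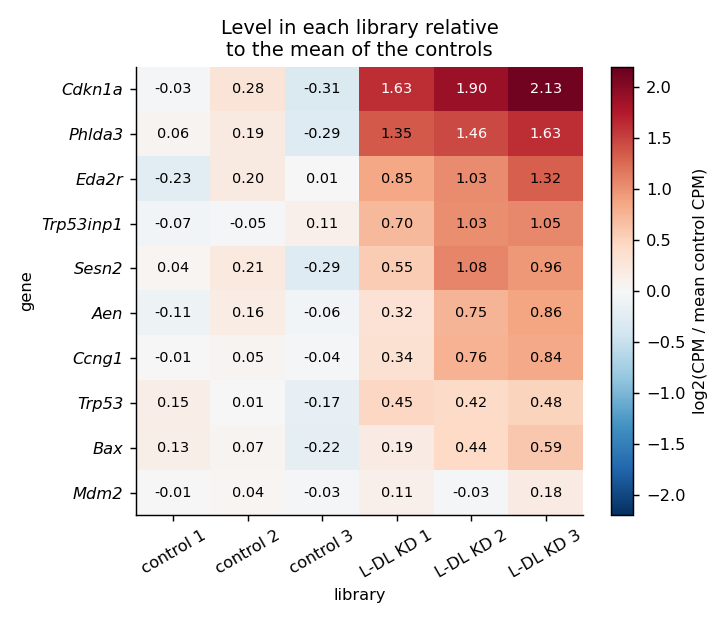
Log2 ratio of each member's CPM in each library to the mean of the 3 controls, ordered by fold change. For Cdkn1a the L-DL KD values run from 1.63 in L-DL KD 1 to 2.13 in L-DL KD 3, and for Mdm2 no library departs from the control mean by more than 0.18.

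Per kilobase of exon, which allows levels to be compared between genes, Ccng1 was the most abundant member in the controls at 48.7 ± 1.69 CPM per kilobase (SD, n = 3). Phlda3 at 36.0 ± 5.97 and Cdkn1a at 26.9 ± 5.51 CPM per kilobase followed, and these neighbours overlapped. Mdm2 at 18.3 ± 0.461 CPM per kilobase overlapped with no other member. Bax, Trp53, Sesn2, Trp53inp1 and Aen lay between 12.2 and 8.54 CPM per kilobase, with each overlapping the next, and Eda2r was lowest at 1.44 ± 0.212 CPM per kilobase. The order at the top differed in the other group, with Phlda3 at 101 ± 10.1, Cdkn1a at 100 ± 17.3 and Ccng1 at 76.9 ± 13.6 CPM per kilobase in the L-DL KD libraries, each overlapping the next. Sesn2, Mdm2, Trp53inp1, Bax, Trp53 and Aen then formed an overlapping run from 19.5 down to 13.5 CPM per kilobase, and Eda2r stayed lowest at 3.04 ± 0.498 CPM per kilobase.

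The 5 genes outside the set whose log2 CPM followed Cdkn1a most closely over the 6 libraries were Lbh, Inpp5d, Chchd2, Eef1a1 and Snrpc, with Pearson's r from 0.997 to 0.999. Any gene that differs between the groups and orders the libraries alike reaches a high r with 6 points. Inpp5d, a phosphatase gene expressed mainly in immune cells including microglia, was at 50.05, 56.5 and 47.1 CPM in the controls and at 93.4, 105 and 107 CPM in the libraries labelled L-DL KD. Among the members, Phlda3 had the highest r with Cdkn1a (0.998) and Mdm2 the lowest (0.63).

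A further list of 38 p53 target genes was compared in the same way. Of these, 15 were called higher and 4 lower, with a median log2 fold change of 0.24. With 1 library left out, 11 to 15 were called higher and 4 to 6 lower, and the median was 0.373 without control 2 and 0.324 without control 1. This list too was drawn up with earlier results known. The largest rises were in Rprm, Gadd45a and Ephx1. Rprm encodes reprimo, which acts in G2 arrest, and was at 19.4, 14.0 and 15.2 CPM in the controls and at 80.2, 61.0 and 47.4 CPM in the libraries labelled L-DL KD (log2 fold change 1.96, SE 0.20, adjusted p = 0.000483). Unlike most members, Rprm was highest in L-DL KD 1. Gadd45a, a growth arrest and DNA damage gene, was at 2.90, 2.71 and 2.35 CPM in the controls and at 9.48, 7.18 and 12.9 CPM in the libraries labelled L-DL KD (log2 fold change 1.89, SE 0.25, adjusted p = 0.00124). Ephx1, which encodes microsomal epoxide hydrolase, was at 65.3, 53.8 and 78.5 CPM in the controls and at 261, 219 and 220 CPM in the libraries labelled L-DL KD (log2 fold change 1.82, SE 0.14, adjusted p = 0.000182). In each of these genes the groups lay far apart.

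The other 12 targets called higher were Steap3, Gtse1, Fas, Ckap2, Btg2, Bbc3, Tnfrsf10b, Ddit4l, Sesn1, Psrc1, Polk and Fdxr, named after their values were seen, with log2 fold changes from 0.35 for Fdxr to 1.42 for Steap3. They include the death receptor genes Fas and Tnfrsf10b, and Bbc3, which encodes the cell death activator PUMA. Gls2, which encodes a mitochondrial glutaminase, fell by 1.08 on the log2 scale (SE 0.17, adjusted p = 0.00259). Its levels were 16.7, 19.9 and 18.8 CPM in the controls and 8.93, 6.95 and 10.4 CPM in L-DL KD libraries 1 to 3, and did not overlap. Plk2, which encodes a kinase of synaptic plasticity as well as of the cell cycle, fell by 0.70 (SE 0.08, adjusted p = 0.000655). Its levels were 225, 223 and 206 CPM in the controls and 132, 145 and 124 CPM in the libraries labelled L-DL KD. Zfp365 fell by 0.56 (SE 0.11, adjusted p = 0.00784), from 289, 274 and 296 CPM to 189, 229 and 166 CPM, and the groups of Plk2 and Zfp365 lay apart as well. The last gene called lower was Rrm2b, also named after its values were seen. The 19 targets that did not pass the test had log2 fold changes from -0.54 for Dram1 (SE 0.27) to 1.08 for Trp53cor1 (SE 0.53), a noncoding RNA gene of low level.

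**Figure D4:**
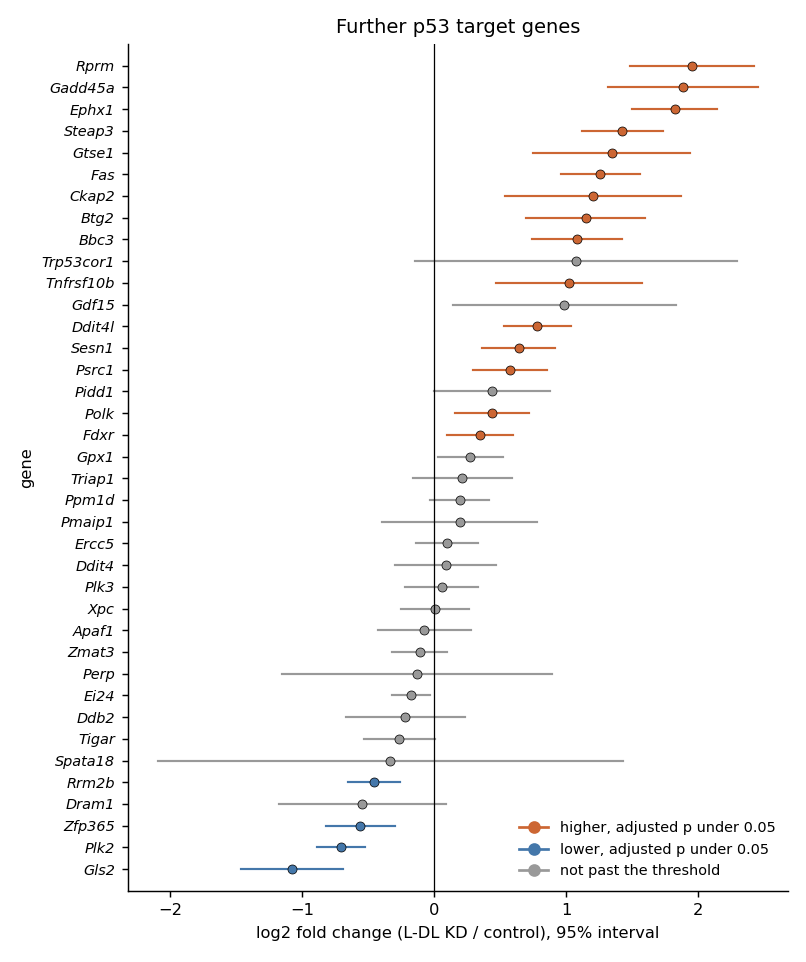
Log2 fold change (L-DL KD over control) with its 95% interval for the 38 further p53 target genes, in orange where called higher, in blue where called lower and in grey where the adjusted p was not under 0.05. Values run from 1.96 for Rprm to -1.08 for Gls2, and 15 genes are orange against 4 blue.

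Genes that act upstream of p53 or on the protein itself were also counted. Of 18 tested regulators, among them Atm, Atr, Chek1, Chek2, Mdm4 and Usp7, 0 were called higher and 0 lower by edgeR, with a median log2 fold change of 0.04. An unadjusted p under 0.05 was reached by 2 of them, and DESeq2 called 0. Without L-DL KD 1, 2 were called higher. Of the 18 tested genes of the BCL2 family and of the caspases, which carry out apoptosis, 6 were called higher and 2 lower, with a median log2 fold change of 0.11. Bmf, a BH3-only activator of cell death, had the largest rise, with 8.57, 9.88 and 7.43 CPM in the controls and 17.7, 18.1 and 20.7 CPM in the libraries labelled L-DL KD (log2 fold change 1.13, SE 0.15, adjusted p = 0.00121). Bok and Bcl2l11, also genes that promote cell death, rose by 0.89 (adjusted p = 0.000243) and 0.88 (adjusted p = 0.00196) on the log2 scale. Bid, a BH3-only gene as well, fell by 0.63 (adjusted p = 0.034), and Bcl2l2, which protects from cell death, fell by 0.27 (adjusted p = 0.016). The count called higher stayed at 6 with any 1 library left out. The count called lower was 0 without control 2 or control 3 and 1 without control 1, L-DL KD 2 or L-DL KD 3.

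Of 5 other tested genes of inhibitors of cyclin-dependent kinases, 0 were called higher, by edgeR, by DESeq2 or at an unadjusted p under 0.05. Cdkn2d was called lower, with 37.1, 37.7 and 33.8 CPM in the controls and 29.8, 28.4 and 29.3 CPM in the libraries labelled L-DL KD (log2 fold change -0.31, SE 0.09, adjusted p = 0.0255). This call was lost without control 1, control 2, L-DL KD 2 or L-DL KD 3 and with no filter on low counts, and without control 2 there was 1 gene called higher. Cdkn2a was left untested because of low counts. Of 18 genes expressed by dividing cells 1 was called higher, Mcm5, with a log2 fold change of 0.59 (SE 0.13, adjusted p = 0.0126), and the median was 0.34. That count ran from 0 to 2 with 1 library left out. A list of 11 genes held Atf4, which encodes the stress factor that can also induce Sesn2, and genes driven by it. Of these, 2 were called higher, Atf4 itself and Atf5, with a log2 fold change of 0.59 for Atf5 (SE 0.10, adjusted p = 0.00415). Of all tested genes 15.6% were called higher. The ATF4 count was 6 without L-DL KD 1, 4 with scaling by library size or a minimum of 50 counts, and 1 with any other single library left out.

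Genes of several cell types moved with the groups. All 14 microglial genes were called higher, with a summed level of 2035 to 2572 CPM in the controls and 3992 to 5242 CPM in the libraries labelled L-DL KD and a median log2 fold change of 1.01. Cx3cr1, the fractalkine receptor of microglia, was at 99.5, 116 and 93.4 CPM in the controls and at 301, 279 and 314 CPM in the libraries labelled L-DL KD, and Itgam rose by 1.58 on the log2 scale (adjusted p = 0.000799). In such bulk tissue a change in the number of cells of a type and a change in RNA per cell cannot be told apart. Of 13 neuronal genes 10 were called lower and 2 higher, with a median log2 fold change of -0.56 and a summed level of 9779 to 10318 CPM in the controls and 6389 to 7179 CPM in the libraries labelled L-DL KD. Nefh fell by 1.53 (adjusted p = 0.00329) and Nefm, another neurofilament gene, rose by 1.65 (adjusted p = 0.000261).

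Of 10 astrocytic genes 3 were called higher and 4 lower, of 10 endothelial genes 5 higher and 0 lower, of 10 oligodendrocyte genes 3 higher and 0 lower, and of 12 interferon response genes 6 higher and 0 lower. The oligodendrocyte count was 6 higher without L-DL KD 3, and 1 gene was called lower without L-DL KD 1. Their summed level was 8121 to 8685 CPM in the controls, with L-DL KD values of 7086 to 10348 CPM on both sides. The interferon count was 3 higher without control 2 or control 3, 4 without L-DL KD 2 and 9 without L-DL KD 1, and the summed levels overlapped, with 785 CPM in control 1 and 571 CPM in L-DL KD 1. Vim rose by 0.82 and S100b fell by 0.72 on the log2 scale among the astrocytic genes, Cldn5 rose by 1.08 and Vwf by 1.0 among the endothelial, Sox10 rose by 0.73 and Mag by 0.71 among the oligodendrocytic, and Mx1 rose by 1.35 and Usp18 by 1.23 among the interferon genes. Of 10 T cell genes 2 were called lower, Lck and Trac, but 0 without control 2 or L-DL KD 2. The 10 genes summed to 55.4 to 86.0 CPM in the controls and 32.4 to 54.9 CPM in the libraries labelled L-DL KD. Of 10 genes of B and plasma cells 1 was called higher, Sdc1, and of 7 choroid plexus genes 0 were called by edgeR, 0 by DESeq2 and 0 at an unadjusted p under 0.05. All 7 choroid plexus genes were called lower without L-DL KD 1, alone or together with control 3. Genes of B and plasma cells called higher numbered 2 without control 3 or L-DL KD 1, and 4 without both. The summed level of the B and plasma cell genes was 311 to 1645 CPM in the controls and 915 to 2457 CPM in libraries labelled L-DL KD. The part of these cell types in the values of the p53 target genes was not tested.

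Splicing of the members was read from junction counts, as PSI, the share of the form that includes a segment. The 3 values of a group carry no replicate numbers in that table, and the set of values belonging to each group was taken from the definition of the PSI difference in the study's methods, so the libraries are not numbered here. Events were listed for 6 members and tested in 16 of 20 cases, which needed a mean of 20 counts per library in all and of 1 count for each form. Of the 16 events 0 had an adjusted p under 0.05 (edgeR's quasi-likelihood test), 0 by limma, and 4 had an unadjusted p under 0.05. These 4 came from Mdm2 and Ccng1 only, and the Mdm2 events among them share their skipping reads. Over all 18829 tested events 0.255% were called and 13.3% had an unadjusted p under 0.05. The groups did not overlap in 6 of the 16 events, against 18.4% of all tested events. No member event was called under any alternative.

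Mdm2 had the event with the smallest p, the skipping of exon 3. This exon of 85 bases at chr10:117709700-117709784 on the minus strand (GRCm38) holds the annotated start codon of the coding transcript Mdm2-201, whereas 3 annotated Mdm2 transcripts of the class processed transcript lack it. Its 81 bases from the start codon (in capitals) to the end of the exon are printed because they encode the first residues of MDM2 and are absent from the skipped form.
Mdm2 exon 3: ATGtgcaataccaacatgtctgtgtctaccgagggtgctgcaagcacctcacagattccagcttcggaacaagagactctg
PSI of this exon was 0.708, 0.63 and 0.602 in the controls and 0.817, 0.821 and 0.857 in the libraries labelled L-DL KD, from 115 to 187 junction reads per library. The groups did not overlap, at means of 0.646 ± 0.0551 and 0.832 ± 0.0219 (SD, n = 3). The change did not pass the test (adjusted p = 0.164, edgeR's quasi-likelihood test), and the adjusted p ranged from 0.136 to 0.4 over the alternatives. The event listed for the 131-base form had PSI of 0.506, 0.33 and 0.332 in the controls and 0.601, 0.583 and 0.681 in the libraries labelled L-DL KD (adjusted p = 0.303, edgeR's quasi-likelihood test). It shares its skipping reads and its upstream splice junction with the 85-base form, so that the 2 events are not independent. The 46 bases found only in the longer form had a separate event at their 5′ splice site. Its mean PSI was 0.0265 in the controls and 0.0283 in the libraries labelled L-DL KD (adjusted p = 0.977, edgeR's quasi-likelihood test). The PSI of the 131-base event is therefore not the share of the longer form.

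In Ccng1 the exon of 99 bases at chr11:40751261-40751359, exon 5 of Ccng1-201, was included in every control read, with 0 skipping reads of 140, 148 and 136. A count of 0 allows up to 2.14, 2.03 and 2.21% of reads, counting error only. The libraries labelled L-DL KD had 6, 5 and 5 skipping reads beside 217, 265 and 257 inclusion reads. Their PSI was 0.956, 0.97 and 0.969 (adjusted p = 0.169, edgeR's quasi-likelihood test). The limit is a share of reads as counted, whereas PSI is corrected for length, so that the 2 are not on one scale. The neighbouring exon of 79 bases had a mean PSI of 0.96 ± 0.0177 in the controls and 0.922 ± 0.0184 in the libraries labelled L-DL KD (SD, n = 3), also without overlap and not past the adjusted threshold (edgeR's adjusted p = 0.34). Both exons thus differed by less than 0.04 in PSI.

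In Trp53 a segment of 96 bases at chr11:69591254-69591349, included through an alternative 3′ splice site, had PSI of 0.277, 0.263 and 0.309 in the controls and 0.135, 0.244 and 0.199 in the libraries labelled L-DL KD (adjusted p = 0.474, edgeR's quasi-likelihood test). The groups did not overlap, but the L-DL KD values were widely spread. A Trp53inp1 exon of 38 bases, annotated in a processed transcript only, had a mean PSI of 0.472 ± 0.0424 in the controls and 0.373 ± 0.0263 in the libraries labelled L-DL KD (SD, n = 3), again without overlap and with an adjusted p of 0.706 by edgeR. In Bax and Aen the groups overlapped in every tested event. The smallest p in these genes belonged to a 4-base change of a 3′ splice site in Bax (mean PSI 0.95 and 0.97, edgeR's adjusted p = 0.672) and to the exon of 487 bases in Aen (mean PSI 0.732 and 0.671, edgeR's adjusted p = 0.765).

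**Figure D5:**
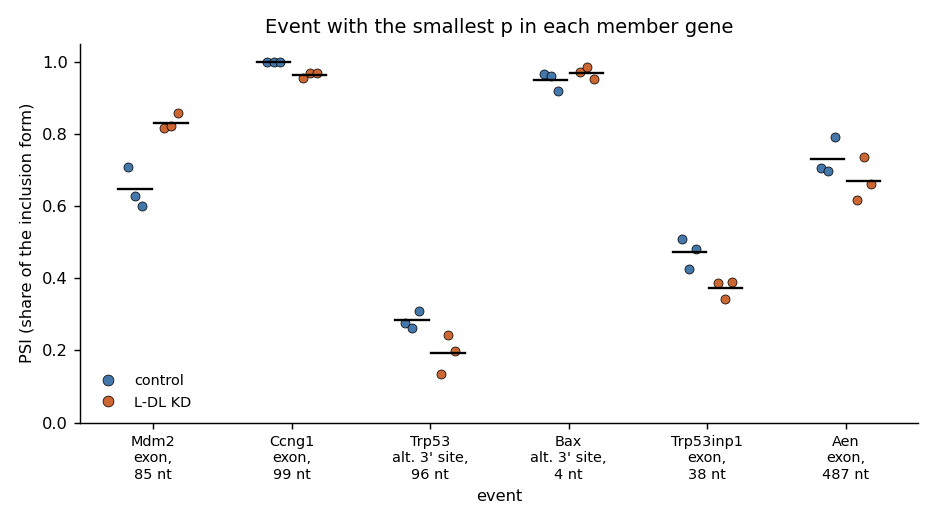
PSI in each control (blue) and L-DL KD (orange) library, with a bar at each group mean, for the event with the smallest p of each of the 6 members with a tested event. Mdm2 exon 3 shows the widest gap between means, 0.646 against 0.832, and the Bax and Aen groups overlap.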

How the data were processed

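Hippocampal poly(A) RNA of 3 control and 3 L-DL KD libraries was used. The authors deposited raw counts of reads per Ensembl gene, and per the labels HISAT2 (version 2.1.0), Bowtie (version 1.1.2) and HTSeq (version 0.6.1) were used on mm10. The authors also deposited rMATS junction counts of 5 event types. Its p-values, FDR and PSI differences were not used. Whether the kit marked strand and whether counting used it is not given in the sources used here. Cdkn1a shares 273 exonic bases with a gene on the opposite strand, and Bax shares 192 with Gm45808 on the same strand, which had 0 counts in each library.

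After TMM scaling, gene counts were tested by the quasi-likelihood method of edgeR (version 4.0.16) in R (version 4.3.3). Genes needed 10 counts or more in 3 libraries or more, with Benjamini-Hochberg adjustment over all of them at 0.05. Inclusion and skipping counts were tested with edgeR with an effect for each library. PSI was computed from counts divided by effective lengths. Same-numbered libraries did not deviate together (r = 0.05, 0.13 and -0.11 over 17621 genes). The members and lists were chosen with earlier results of these data known. Of each list the text names the 3 largest rises and falls, or for cell types and interferon genes the 2 largest changes, among called genes whose groups lay apart, with fewer where fewer qualified. The other called p53 targets, Atf4, Dram1 and Trp53cor1 were added after their values were seen. Alternatives were scaling by library size, DESeq2 (version 1.42.0), other count minimums, a replicate block, limma (version 3.58.1) for events and leaving out libraries. Exons came from GENCODE M21 and gene starts from RefSeq, both GRCm38.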

Additional observations from a re-analysis of the deposited data

How the results depend on the processing

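The 8 members called higher kept their direction and their call under all 12 alternatives, and Mdm2 was not called under any of them, with adjusted p from 0.173 to 0.711. Bax was called under 3, without L-DL KD 1, without control 3 and L-DL KD 1 together (adjusted p = 0.0327, chosen after seeing the data), and by DESeq2. The count of genes called higher in the whole table ran from 1767 to 3272 with 1 library left out and that of genes called lower from 1693 to 3248, with the fewest calls whenever a control was left out. Events called in the whole splicing table numbered 48, between 0 and 52 with 1 library of a group left out, and 0 by limma on the log2 ratio. With the replicate block, 2311 genes were called higher and 2324 lower, and 8 members remained called higher. Cdkn2d was not called, 1 gene of the ATF4 list was called higher, and 4 genes of B and plasma cells were. For events no replicate block was fitted, and the splicing table carries no replicate numbers for its values. Neither labels nor methods state that equal replicate numbers share an animal, batch or day. The member events rested on 27 to 673 junction reads per library.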
